A study of Rattus norvegicus with 6 samples.

Results

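The neuromuscular junction genes described here are 10 transcripts that build the contact between a motor nerve and a muscle fibre: the organisers Agrn, Lrp4, Musk and Dok7, the receptor anchor Rapsn, and the muscle acetylcholine receptor subunit genes Chrna1, Chrnb1, Chrnd, Chrng and Chrne. They were picked by gene symbol, and all 10 had a row among the 18237 rows of the count tables. The libraries came from cultured rat cells labelled NRVM, which commonly stands for neonatal ventricular myocytes, while the protocol gives embryonic rat hearts as their source; 3 libraries had received an siRNA against Mt2 (siMt2), which encodes a zinc-binding metallothionein, and 3 a control siRNA (siNT). Both groups were grown in DMEM with fetal bovine serum and antibiotics, and their common protocol also lists insulin, dexamethasone and isobutylmethylxanthine as additives at stages it does not tie to the siRNA. No strain, age or sex is stated, and nothing says that replicates came from separate cultures, so p-values reflect the scatter of these libraries alone, and that scatter may be technical.

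At a muscle synapse the nerve releases agrin, which binds LRP4 on the muscle membrane. LRP4 then activates the receptor kinase MuSK, the adaptor DOK7 sustains that activity inside the cell, and rapsyn clusters acetylcholine receptors at the site. The receptor is a ring of subunits; fetal and denervated muscle fibres use the gamma subunit (Chrng), which the epsilon subunit (Chrne) replaces in adult fibres, while the alpha, beta and delta subunits (Chrna1, Chrnb1, Chrnd) are common to both forms. In heart the muscle-type receptor is not the main acetylcholine receptor; muscarinic receptors carry the vagal signal there.

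The libraries held 6817777, 4220831 and 2859759 counts in siMt2 and 5561522, 4216586 and 6567793 in siNT, and 3 counts, the upper limit behind a reading of 0, stood for 0.438 to 1.06 CPM (library-size normalised counts, here scaled between libraries by the TMM method). The siRNA target showed no measurable loss in the libraries labelled siMt2, which bears on every direction given here. Its transcript Mt2a stood at 70.7, 87.3 and 142 CPM in siMt2 and at 90.7, 170 and 93.3 CPM in siNT (log2 fold change -0.28, SE 0.42, adjusted p = 0.631 in edgeR's quasi-likelihood test). The 95% interval runs from 0.373 to 1.82 times the siNT level, so the size of any loss is not resolved. The label NRVM was checked against 10 cardiomyocyte markers: of the 9 with a row, Tnnt2 alone passed the filter on low counts, and Myh6, Tnni3, Mybpc3 and Nppb never exceeded 3 counts in a library. Of 16 skeletal muscle markers, 12 had a row and 5 passed, among them the myoblast genes Myod1 (23.1 ± 0.859 CPM in siMt2, 16.7 ± 0.224 CPM in siNT, SD, n = 3 each) and Cdh15. Genes of fused muscle fibres were mixed. Ckm, Acta1 and Myh3 had at most 8 counts in a library. Myh1 (84, 48 and 25 counts in siMt2, 88, 67 and 119 in siNT) and Tnnt3 (89, 61 and 39 in siMt2, 35, 43 and 56 in siNT) passed.

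Musk rose and Lrp4 fell in the libraries labelled siMt2, and both calls held under every alternative run. Dok7 also passed upward and Rapsn downward, but these calls depended on single libraries and on the test used. Agrn and Chrnb1 did not pass, and 4 of the 5 receptor subunit genes were at or near the detection limit. In all, 6 of the 10 genes had enough counts to be tested and 4 passed an adjusted p of 0.05, 2 higher and 2 lower. Of all 11726 genes tested, 50.9% passed (25.8% higher, 25.1% lower), so a share of 4 in 6 is not set apart from the background. The median log2 fold change of the 6 genes was -0.14, against 4.90e-04 over all genes tested. These are bulk measurements, in which fewer cells of a type and less RNA per cell cannot be told apart.

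The signal from nerve and muscle surface was read first. Agrn, which encodes the ligand agrin, stood at 96.2, 96.2 and 82.4 CPM in the siMt2 libraries and at 93.4, 103 and 88.6 CPM in the siNT libraries. These ranges overlap. The means were 91.6 ± 7.98 CPM in siMt2 and 95 ± 7.35 CPM in siNT (SD, n = 3 each). The log2 fold change was -0.03 (SE 0.08, 95% interval -0.20 to 0.13; edgeR adjusted p = 0.756). The interval leaves room for a level between 0.872 and 1.10 times that of siNT. Its sign turned under upper quartile scaling, where the log2 fold change was 0.0059, and without siNT replicate 2 (0.017) or siMt2 replicate 3 (0.030). Gene counts do not separate the nerve-specific splice forms of agrin, which activate MuSK strongly, from the forms that other cells make.

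Lrp4, the agrin receptor that hands the signal to MuSK, stood at 32.3, 30.3 and 28.2 CPM in siMt2 and at 43.0, 42.1 and 46.1 CPM in siNT. All 3 siMt2 libraries lay below all 3 siNT libraries, as the groups of 57.6% of all genes tested also failed to overlap. Lrp4 fell to 30.2 ± 2.05 CPM in siMt2, against 43.7 ± 2.13 CPM in siNT (SD, n = 3 each), which is 30.3% lower. The log2 fold change was -0.52 (SE 0.11, 95% interval -0.74 to -0.30; edgeR adjusted p = 3.69e-04). With 1 library left out in turn it lay between -0.58 and -0.48.

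Musk, the receptor tyrosine kinase at the centre of the pathway, moved the other way. It stood at 158, 161 and 162 CPM in siMt2 and at 99.0, 98.5 and 94.1 CPM in siNT, again with no overlap. Replicates lay close together, with a coefficient of variation of 1.28% in siMt2 and 2.76% in siNT, below the counting error of its smallest count, 412, which is 4.93%. The means were 160 ± 2.04 CPM in siMt2 and 97.2 ± 2.68 CPM in siNT (SD, n = 3 each), a 1.65-fold higher level. The log2 fold change was 0.72 (SE 0.06, 95% interval 0.60 to 0.84; edgeR adjusted p = 4.06e-09), and 18.1% of all genes tested changed by more in either direction. The exact two-sided permutation test over the 6 libraries gave p = 0.1 for Musk and for Lrp4, the smallest that 3 against 3 libraries allow.

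The counts of these genes can also be set against each other within a library, which needs no scaling. Counts of Musk per count of Lrp4 were 4.90, 5.30 and 5.75 in siMt2 and 2.3, 2.34 and 2.04 in siNT. Counts of Musk per count of Rapsn were 3.25, 3.31 and 3.97 in siMt2 and 1.69, 1.80 and 1.82 in siNT. Both ratios were higher in every siMt2 library than in any siNT library. They restate the changes of the single genes, were formed with those known and are not corrected for transcript length.

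Dok7, the cytoplasmic adaptor that MuSK needs for full activity, was measured on few counts. It had 35, 18 and 2 counts in siMt2 and 13, 4 and 3 counts in siNT, or 5.11, 4.26 and 0.704 CPM in siMt2 and 2.35, 0.956 and 0.460 CPM in siNT. The siMt2 replicates 1 and 2 were above all siNT libraries, whereas siMt2 replicate 3, the library with the lowest total, lay below siNT replicates 1 and 2. The means were 3.36 ± 2.34 CPM in siMt2 and 1.25 ± 0.979 CPM in siNT (SD, n = 3 each), and the log2 fold change came to 1.57 (SE 0.59, 95% interval 0.30 to 2.84; edgeR adjusted p = 0.0388). Leaving out siNT replicate 2, siNT replicate 3 or siMt2 replicate 2 ended the call (edgeR adjusted p = 0.139, 0.161 and 0.109). Without siNT replicate 1 the log2 fold change was 2.44 (edgeR adjusted p = 0.0102), without siMt2 replicate 3 it was 1.92 (edgeR adjusted p = 9.62e-04), and without siMt2 replicate 1 the gene no longer passed the filter. DESeq2 and limma-voom also missed the threshold (adjusted p = 0.0718 and 0.0873).

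Rapsn encodes rapsyn, the scaffold that holds receptors in clusters. It stood at 48.6, 48.5 and 40.8 CPM in siMt2 and at 58.5, 54.7 and 51.8 CPM in siNT, with no overlap between the groups. The means were 46.0 ± 4.44 CPM in siMt2 and 55.0 ± 3.37 CPM in siNT (SD, n = 3 each), 15.4% lower in siMt2. The log2 fold change was -0.24 (SE 0.10, 95% interval -0.45 to -0.03), and the edgeR adjusted p of 0.0492 was just under the threshold. Under 14 alternatives the log2 fold change stayed negative, between -0.29 and -0.18, and 4 alternatives kept the call, with adjusted p between 0.0321 and 0.219. Leaving out siNT replicate 1 or 2 (edgeR adjusted p = 0.165 and 0.0881) or siMt2 replicate 1, 2 or 3 (0.0613, 0.0609 and 0.134) ended it, as did DESeq2 (adjusted p = 0.118), limma-voom (0.0521), upper quartile scaling (0.0993), the stricter filter (0.0565) and thinning (0.219).

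**Figure D1:**
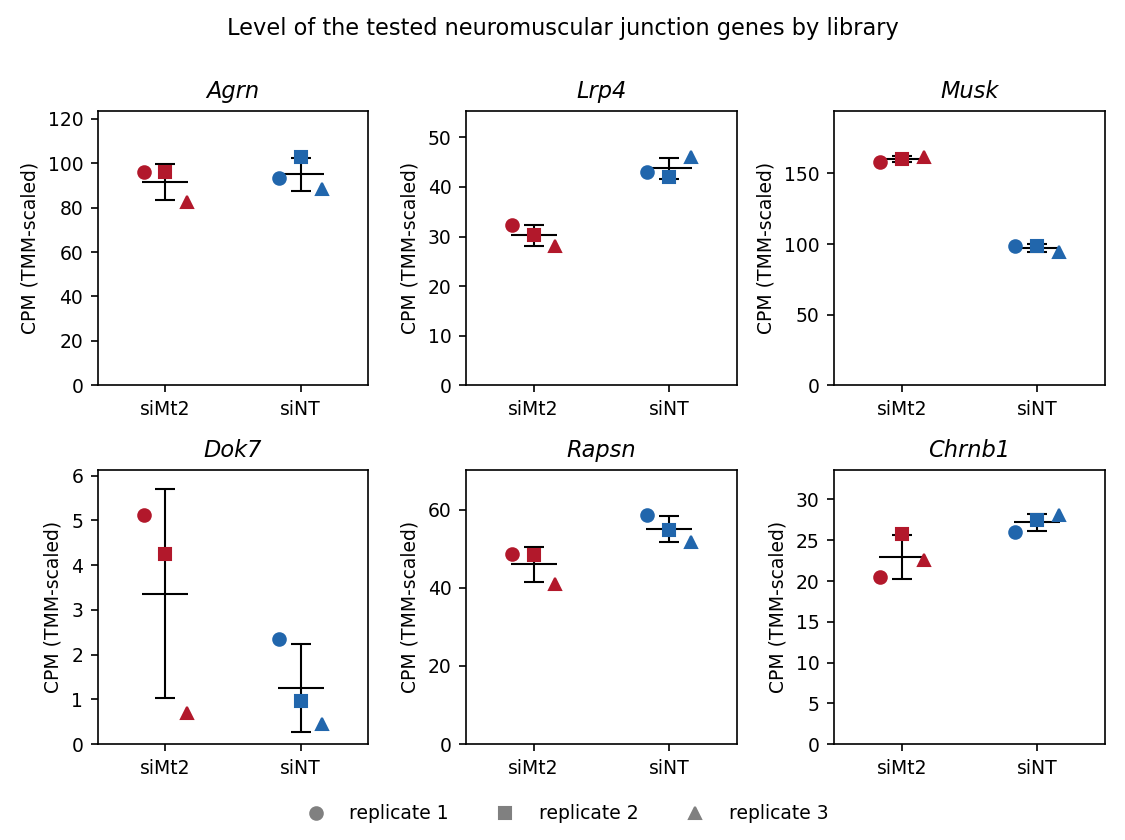
TMM-scaled CPM (vertical axes, from 0) of the 6 tested genes in each library; red marks siMt2, blue siNT, the symbol gives the replicate, and the bars show mean and SD of 3 libraries. Musk is higher in all siMt2 libraries (158 to 162 against 94.1 to 99.0 CPM), Lrp4 is lower in all of them (28.2 to 32.3 against 42.1 to 46.1 CPM), and Dok7 spreads from 0.704 to 5.11 CPM within siMt2.

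**Figure D2:**
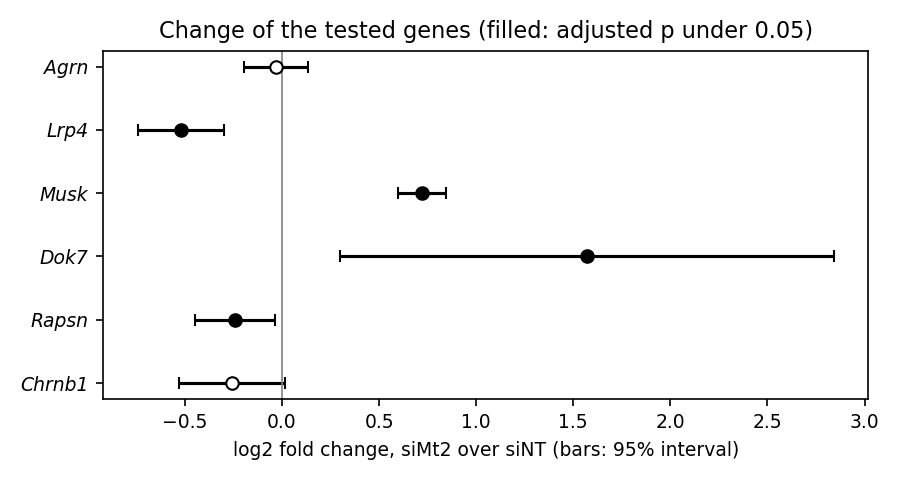
Log2 fold change of siMt2 over siNT (horizontal axis) for the 6 tested genes, with 95% intervals from edgeR; filled points have an adjusted p under 0.05. The interval of Musk (0.60 to 0.84) lies wholly above 0 and that of Lrp4 (-0.74 to -0.30) wholly below, while those of Agrn and Chrnb1 include 0 and that of Dok7 is the widest.

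Of the receptor subunits, only the beta subunit gene Chrnb1 had enough counts to be tested. It stood at 20.4, 25.8 and 22.5 CPM in siMt2 and at 26.0, 27.5 and 28.0 CPM in siNT. The siMt2 libraries lay below the siNT libraries, the nearest pair being 25.8 CPM in siMt2 and 26.0 CPM in siNT. The means were 22.9 ± 2.69 CPM in siMt2 and 27.2 ± 1.05 CPM in siNT (SD, n = 3 each), and the log2 fold change came to -0.26 (SE 0.13, 95% interval -0.53 to 0.01; edgeR adjusted p = 0.106). The interval spans 0.692 to 1.01 times the siNT level. In the GRCr8 annotation, which is not the build of these counts, Chrnb1 overlaps Zbtb4. Zbtb4 stood at 84.7 ± 5.12 CPM in siMt2 and 90.8 ± 3.01 CPM in siNT (log2 fold change -0.09, SE 0.07, edgeR adjusted p = 0.310). 4930522L14Rikl overlaps Musk, and LOC120101912 and LOC134486122 overlap Lrp4, in the same annotation. Whether reads were shared between such pairs is not known, because the counting settings are not given in the sources used here.

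Chrna1, the subunit with the main agonist binding face and part of every muscle receptor, had 4, 1 and 1 counts in siMt2 and 2, 3 and 1 counts in siNT. Over the summed library totals its rate was 0.432 CPM in siMt2 (95% exact Poisson interval 0.158 to 0.940) and 0.367 in siNT (0.135 to 0.799). The groups overlap, and a difference was not detectable at this depth. Intervals on counts take in counting error alone, as the tables hold reads and not labelled molecules.

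Chrnd, the delta subunit gene, had 3, 6 and 5 counts in siMt2 and 1, 0 and 1 counts in siNT. Chrng, the fetal gamma subunit gene, had 7, 1 and 6 counts in siMt2 and 1, 1 and 0 counts in siNT. Each gene thus came to 14 counts in siMt2 and 2 in siNT, a rate of 1.01 CPM in siMt2 and 0.122 in siNT. The ratio was 8.23, with a counting interval of 1.89 to 74.6. For Chrnd no siMt2 library had as low a CPM as any siNT library, whereas for Chrng the siMt2 replicate 2, with a single count, overlapped the siNT libraries. Neither gene passed the filter; when no filter was applied their edgeR adjusted p was 0.0294 for Chrnd and 0.0381 for Chrng, and a fitted fold change from so few counts is not given. Chrnd and Chrng are neighbours in the RefSeq annotation of GRCr8.

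Chrne, the adult epsilon subunit gene, had 7, 3 and 1 counts in siMt2 and 2, 2 and 4 counts in siNT, which overlap. Its rate was 0.791 CPM in siMt2 (95% exact Poisson interval 0.395 to 1.42) and 0.489 in siNT (0.211 to 0.964), a ratio of 1.62 with a counting interval of 0.592 to 4.63. Without a filter its edgeR adjusted p was 0.681. The annotation places Chrne across Gp1ba, which had 3, 4 and 2 counts in siMt2 and 0, 5 and 4 counts in siNT. Together the 4 subunit genes below the filter had 21, 11 and 13 counts in siMt2 and 6 counts in each siNT library, a sum formed after the values were seen and not tested.

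**Figure D3:**
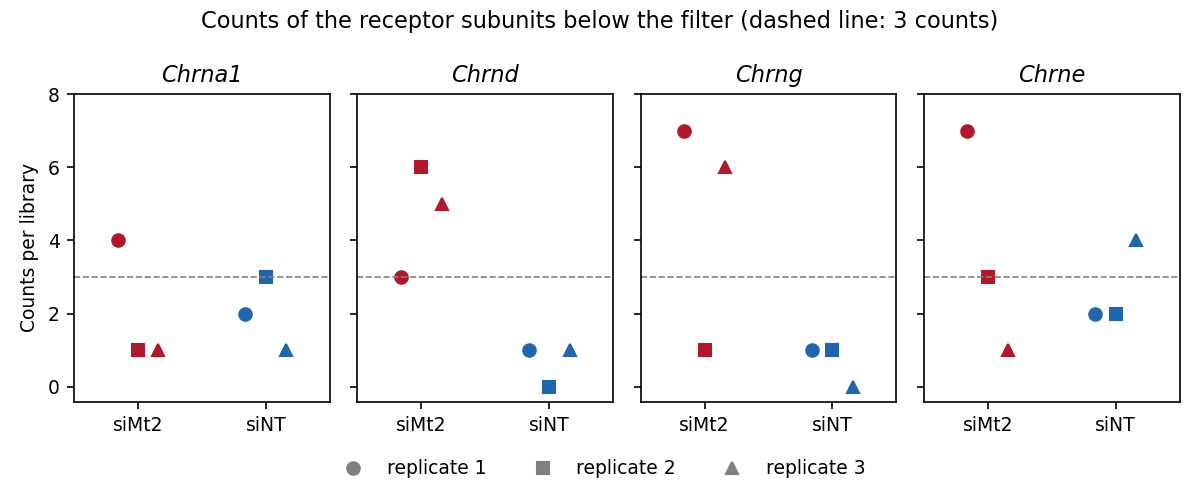
Raw counts per library (vertical axis, shared) of the 4 receptor subunit genes that did not pass the filter, with siMt2 in red and siNT in blue; the symbol gives the replicate and the dashed line marks 3 counts. No library exceeds 7 counts, and Chrnd, Chrng and Chrne reach 5 to 7 counts only in siMt2 libraries. The groups overlap for Chrna1, Chrng and Chrne but not for Chrnd.

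The fetal against adult balance was read as the share of Chrng among the counts of Chrng and Chrne, which is not corrected for length. It was 50%, 25% and 85.7% in siMt2, from 14, 4 and 7 counts, and 33.3%, 33.3% and 0% in siNT, from 3, 3 and 4 counts. The exact Clopper-Pearson 95% intervals of single libraries run from 23.0% to 77.0% for siMt2 replicate 1, which had the most counts, and from 0.840% to 90.6% for siNT replicate 1. Pooled, the share was 56% of 25 counts in siMt2 (34.9% to 75.6%) and 20% of 10 counts in siNT (2.52% to 55.6%). The mean shares differed by 31.3 percentage points, from 53.6% ± 30.5 in siMt2 and 22.2% ± 19.2 in siNT (SD, n = 3 each), within the spread of the libraries (exact two-sided permutation p = 0.3). The siMt2 libraries alone spanned the range from below the highest siNT value to far above it, and the difference shrank to 15.3 points without siMt2 replicate 3 and to 20.2 points without siNT replicate 3, and grew to 45.6 points without siMt2 replicate 2.

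The summed level of all 5 subunit genes was 23.5, 28.4 and 27.1 CPM in siMt2 and 27.1, 28.9 and 29.0 CPM in siNT. The means, 26.3 ± 2.53 CPM in siMt2 and 28.3 ± 1.07 CPM in siNT (SD, n = 3 each), differed by -2.0 CPM (exact two-sided permutation p = 0.3). Chrnb1 held 83.1% to 90.8% of the subunit counts in siMt2 and 95% to 96.8% in siNT. The groups overlap in the sum but not in Chrnb1. Without siMt2 replicate 1 the difference was -0.58 CPM, and without siMt2 replicate 2 it was -3.02 CPM.

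Transcription of muscle synapse genes is classically tied to the E-box (CANNTG), bound by the MyoD family, and to the N-box (TTCCGG, or CCGGAA on the other strand), bound by ETS factors such as GABP. The promoter windows below, from 250 bases before to 50 after each annotated start, are RefSeq sequences of build GRCr8 and were not joined to the counts by position. They show the gene with the steadiest higher call (Musk), the subunit gene with enough counts to be tested (Chrnb1), and the delta, gamma and epsilon subunit genes that were not tested. The windows lie at chr5:77853486-77853785, plus strand (Musk), chr10:55015058-55015357, minus strand (Chrnb1), chr9:95310066-95310365, plus strand (Chrnd), chr9:95325734-95326033, plus strand (Chrng) and chr10:55834105-55834404, minus strand (Chrne). Capitals mark the E-box and N-box letters, searched on both strands and not overlapping each other here.
Musk: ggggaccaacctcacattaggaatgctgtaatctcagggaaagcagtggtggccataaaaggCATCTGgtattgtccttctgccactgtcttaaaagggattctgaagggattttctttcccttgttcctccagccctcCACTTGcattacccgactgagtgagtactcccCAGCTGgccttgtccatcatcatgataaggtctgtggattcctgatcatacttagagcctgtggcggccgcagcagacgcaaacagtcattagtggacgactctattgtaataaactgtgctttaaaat
Chrnb1: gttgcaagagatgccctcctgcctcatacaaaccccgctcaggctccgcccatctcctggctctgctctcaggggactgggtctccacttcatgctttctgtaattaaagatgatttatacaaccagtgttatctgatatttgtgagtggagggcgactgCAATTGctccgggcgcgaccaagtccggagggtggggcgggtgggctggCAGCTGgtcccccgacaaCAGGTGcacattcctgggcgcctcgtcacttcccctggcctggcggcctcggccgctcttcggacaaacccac
Chrnd: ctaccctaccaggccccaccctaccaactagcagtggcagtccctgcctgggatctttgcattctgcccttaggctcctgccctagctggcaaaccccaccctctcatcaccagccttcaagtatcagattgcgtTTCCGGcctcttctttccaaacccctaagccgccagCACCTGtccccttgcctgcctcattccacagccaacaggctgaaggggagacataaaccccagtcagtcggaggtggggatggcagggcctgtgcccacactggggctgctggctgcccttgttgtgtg
Chrng: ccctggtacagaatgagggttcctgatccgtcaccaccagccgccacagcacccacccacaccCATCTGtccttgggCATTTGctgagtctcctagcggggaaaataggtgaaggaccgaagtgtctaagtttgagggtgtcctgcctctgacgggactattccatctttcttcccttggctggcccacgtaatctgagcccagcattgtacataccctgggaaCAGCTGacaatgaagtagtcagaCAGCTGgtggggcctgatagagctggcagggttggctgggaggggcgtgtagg
Chrne: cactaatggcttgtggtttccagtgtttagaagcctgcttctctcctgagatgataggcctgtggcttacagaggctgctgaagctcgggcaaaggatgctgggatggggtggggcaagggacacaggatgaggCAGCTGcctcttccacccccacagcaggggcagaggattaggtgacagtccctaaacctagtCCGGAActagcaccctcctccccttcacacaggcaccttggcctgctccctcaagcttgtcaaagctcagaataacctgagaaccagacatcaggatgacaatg

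Of the 10 genes, 8 had a promoter entry. The Musk window held 3 E-box matches, at -188, -111 and -79 from the start site, and no N-box match. The Chrnb1 window also held 3 E-box matches and the Chrng window 4, with 2 of the latter at -26 and -3. The Chrnd and Chrne windows were the only ones of the 8 with an N-box match, at -115 in Chrnd and -54 in Chrne, each beside 1 E-box match. Chrna1 held 3 E-box matches, Dok7 held 1 and Agrn held 0. Among 33469 windows of this length in the table, 72.1% held an E-box match and 15% an N-box match, so an E-box match does not set these genes apart. The median was 1 E-box match, with 38.6% of windows holding 2 or more and 5.79% holding 4 or more. Genes with 3 E-box matches occur among those that were measured and among those near 0 (Musk, Chrnb1 and Chrna1).

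The proteins that relay or tune MuSK signalling went both ways. Of 25 such genes 24 were tested, of which 8 rose, 8 fell and 8 did not pass, with a median log2 fold change of 0.03. Of all genes tested, 25.8% rose and 25.1% fell. Without siNT replicate 1, 5 of the MuSK partner genes were higher and 8 lower. In that fit 45.2% of all genes tested passed, 49.9% of them upward. Dnaja3, whose product Tid1 binds MuSK, rose to 79.6 ± 7.47 CPM in siMt2, against 50.6 ± 2.41 CPM in siNT (log2 fold change 0.66, SE 0.09). Ywhag, a 14-3-3 protein gene reported to act on MuSK in mouse muscle, rose (0.42, SE 0.04), as did the exchange factor gene Arhgef25 (0.52, SE 0.07). Macf1, a cytoskeletal linker gene, fell to 656 ± 44.0 CPM in siMt2, against 830 ± 26.2 CPM in siNT (-0.34, SE 0.05). None of the 4 had an edgeR adjusted p above 4.39e-06.

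Among genes of the postsynaptic scaffold and the dystrophin complex, which tie the membrane to matrix and cytoskeleton, 6 of 15 tested rose, 4 fell and 5 did not pass (median log2 fold change 0.21). Of all genes tested, 25.8% rose and 25.1% fell. Dag1, the dystroglycan gene, fell to 476 ± 8.12 CPM in siMt2, against 832 ± 7.10 CPM in siNT (-0.81, SE 0.04). Utrn, the dystrophin relative found at the synapse, fell (-0.51, SE 0.06), and so did the syntrophin gene Sntb1 (-0.67, SE 0.11). Sgca, the alpha-sarcoglycan gene, rose to 75.5 ± 3.02 CPM in siMt2, against 31.3 ± 0.991 CPM in siNT (1.27, SE 0.09). Their edgeR adjusted p did not exceed 4.98e-05.

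Matrix genes of the synaptic cleft rose in 6 of 10 cases tested and fell in 0 (median log2 fold change 0.36), where 25.8% of all genes tested rose and 25.1% fell. The library siMt2 replicate 3 stood apart in several of those that did not pass. Lamb2, a synaptic laminin gene, was at 485, 483 and 336 CPM in siMt2 and 551, 519 and 516 CPM in siNT. The basement membrane genes Lama5 (1490, 1510 and 996 CPM in siMt2, 1321, 1345 and 1290 CPM in siNT) and Hspg2 (1062, 1084 and 672 CPM in siMt2, 748, 702 and 702 CPM in siNT) were also lowest in that library. Without it, 8 of the 10 were higher and 1 lower. In that fit 51.5% of all genes tested passed, 50.6% of them upward. Bgn, the gene of biglycan, which binds MuSK and stabilises synapses in mouse, rose to 2294 ± 99.0 CPM in siMt2, against 1683 ± 41.1 CPM in siNT (0.45, SE 0.04). The basement membrane genes Nid1 (0.33, SE 0.04), Lamc1 (0.27, SE 0.04) and Lama4 (0.60, SE 0.08) rose, with edgeR adjusted p of at most 3.00e-06. Prima1, which encodes the membrane anchor of acetylcholinesterase in brain, had 26, 26 and 18 counts in siMt2 and 1, 2 and 5 counts in siNT (3.35, SE 0.49, edgeR adjusted p = 9.58e-06). It was picked out once its values were known, and it passed the filter only through its siMt2 libraries. Prima1 is 1 of the 6 cleft genes counted as higher, and its direction there was largely set by the filter. Colq, of the same list, had 13, 10 and 2 counts in siMt2 and 19, 9 and 22 counts in siNT. It did not pass (-0.77, SE 0.42, edgeR adjusted p = 0.133). Acetylcholinesterase itself, Ache, had 8, 2 and 7 counts in siMt2 and 5, 3 and 3 counts in siNT and was not tested. Markers of fibroblasts, cells that also make such matrix, were higher in 6 of 8 cases tested, lower in 0 and at a median log2 fold change of 0.80. Of these, Dcn and Lum passed the filter only through their siMt2 libraries, so their direction was largely set by the filter. Lum had 23, 11 and 10 counts in siMt2 and 5, 0 and 2 counts in siNT. The summed level of the fibroblast markers was 9884 to 13857 CPM in siMt2 and 7601 to 7755 CPM in siNT. Most of that sum was Col1a1, at 8414, 8946 and 6024 CPM in siMt2 and 4893, 4583 and 4628 CPM in siNT, again lowest among the siMt2 libraries in replicate 3. Of the markers that did not pass, Col1a2 scattered widely, at 327, 1151 and 238 CPM in siMt2 and 213, 480 and 312 CPM in siNT. Col3a1 was steady and hardly differed, at 1307, 1259 and 1135 CPM in siMt2 and 1181, 1221 and 1176 CPM in siNT (0.05, SE 0.04, edgeR adjusted p = 0.360). Postn (1.25, SE 0.06), Vim (0.68, SE 0.04), Thy1 (0.80, SE 0.05) and Lum (2.81, SE 0.59) rose among them (edgeR adjusted p at most 4.75e-04), while Pdgfra was at 0 counts in every library but siNT replicate 1, with 2. Their part in the levels of the junction genes was not tested.

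Genes of the neuregulin pathway and regulators of synaptic transcription, read as 1 list, were split, with 3 of 14 tested higher, 3 lower and 8 not passing. Of all genes tested, 25.8% were higher and 25.1% lower. Among the 3 lower genes was Erbb3, a neuregulin receptor gene and not a regulator of transcription (log2 fold change -0.38, SE 0.14, edgeR adjusted p = 0.0296). Etv5, an ETS factor gene needed for synaptic transcription in mouse muscle, rose to 85.4 ± 4.30 CPM in siMt2, against 38.6 ± 4.14 CPM in siNT (log2 fold change 1.16, SE 0.10, edgeR adjusted p = 3.90e-09). Snai2, a repressor that binds E-boxes, rose (0.89, SE 0.13), and Hdac9, a class II deacetylase gene, fell (-1.90, SE 0.28), with edgeR adjusted p of 7.94e-06 and 1.21e-05. Myog, the myogenin gene, which drives receptor transcription during differentiation and after denervation, had 14, 10 and 4 counts in siMt2 and 43, 22 and 25 counts in siNT (-1.47, SE 0.37, edgeR adjusted p = 0.00239). Myod1 went the other way (0.46, SE 0.14, edgeR adjusted p = 0.00833). Gabpa, the N-box binding subunit of GABP, did not pass (70.9 ± 5.81 CPM in siMt2, 64.6 ± 5.73 CPM in siNT; 0.12, SE 0.09, edgeR adjusted p = 0.295); it too was picked out with its values known.

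The other muscle markers tested did not share a direction either. Tnnt3, a fast troponin T gene, rose to 13.7 ± 0.716 CPM in siMt2, against 8.39 ± 1.98 CPM in siNT (0.72, SE 0.21, edgeR adjusted p = 0.00666). Myh1, an adult fast myosin gene, fell to 10.8 ± 1.79 CPM in siMt2, against 16.7 ± 1.32 CPM in siNT (-0.60, SE 0.18, edgeR adjusted p = 0.00804), and missed the threshold with libraries thinned to equal depth (adjusted p = 0.114). The summed level of the 12 skeletal muscle markers with a row was 130 to 185 CPM in siMt2 and 139 to 147 CPM in siNT. Tnnt2, a troponin T gene of heart and of immature skeletal muscle, rose to 54.5 ± 5.19 CPM in siMt2, against 27.2 ± 1.38 CPM in siNT (1.01, SE 0.11, edgeR adjusted p = 1.81e-07).

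Genes of protein glycosylation in which mutations cause congenital myasthenic syndromes in humans changed in both directions. Of 5 tested, 3 fell and 1 rose (median log2 fold change -0.27), where 25.1% of all genes tested fell and 25.8% rose. Gfpt1, the first enzyme of the hexosamine pathway, fell to 175 ± 5.39 CPM in siMt2, against 209 ± 1.48 CPM in siNT (-0.26, SE 0.05, edgeR adjusted p = 2.79e-04). Dpagt1 (-0.32, SE 0.09) and Alg2 (-0.27, SE 0.10) fell and Alg14 rose (0.40, SE 0.14), with edgeR adjusted p of 0.00649, 0.0246 and 0.0248. Each of these 3 calls was lost in at least 1 fit with a library left out: Dpagt1 without siNT replicate 2 (0.0520), Alg2 without siNT replicate 3 (0.130) or siMt2 replicate 2 (0.114), and Alg14 without siNT replicate 1 or 2 (0.0873 and 0.0519) or siMt2 replicate 2 or 3 (0.0590 and 0.0510), all edgeR adjusted p. DESeq2 also missed the threshold for Alg2 and Alg14 (adjusted p = 0.0698 and 0.0891), and Alg2 was lost under upper quartile scaling (0.0524) and thinning (0.133).

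**Figure D4:**
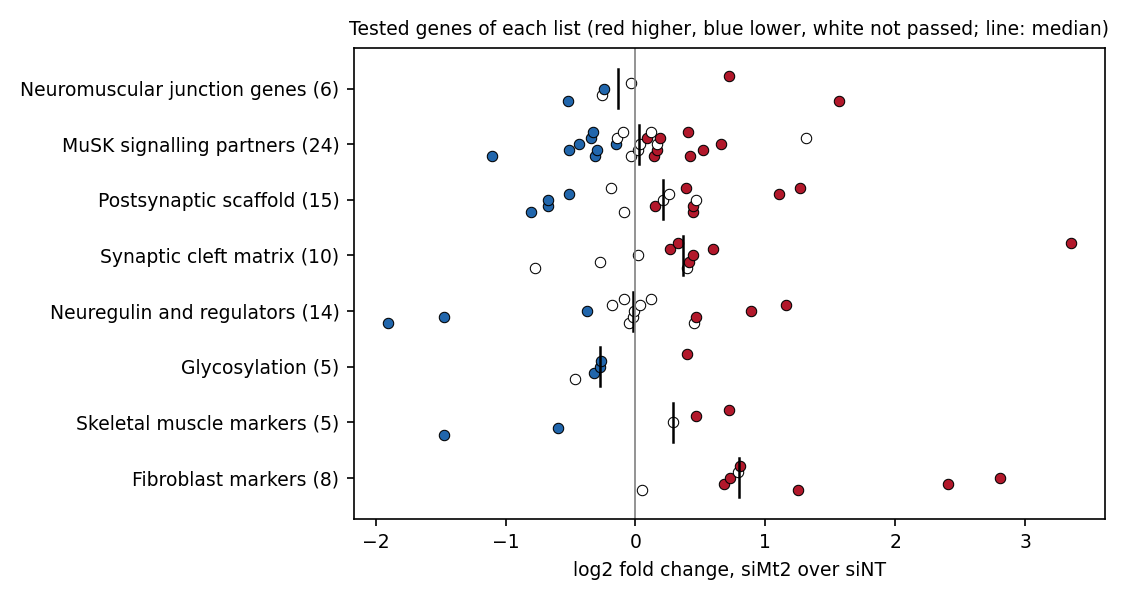
Log2 fold change of siMt2 over siNT (horizontal axis) for each tested gene of 8 lists, with the number tested in parentheses; red points are higher and blue points lower at an adjusted p under 0.05, white points did not pass, and the black line is the list's median. The junction genes and the MuSK partners fall on both sides of 0, while the cleft matrix and fibroblast lists hold no gene that passed downward with all 6 libraries in the fit.

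Few receptor subunit genes of the neuronal type and few nerve markers had enough counts to be tested, and both nerve markers that did were higher in siMt2. Of 11 neuronal-type subunit genes, 4 had a row, and Chrnb2 alone was tested, at 2.09 ± 0.467 CPM in siMt2 and 2.27 ± 0.542 CPM in siNT (log2 fold change -0.03, SE 0.41, edgeR adjusted p = 0.958). Of 10 Schwann cell and neuronal markers, 7 had a row and 2 were tested. Dbh, an enzyme gene of noradrenaline synthesis, was at 6.42 ± 0.632 CPM in siMt2 and 1.17 ± 0.589 CPM in siNT (2.37, SE 0.38, edgeR adjusted p = 2.73e-05). It had 40, 30 and 18 counts in siMt2 and 4, 4 and 12 counts in siNT, and passed the filter only through siMt2. Tubb3, a neuronal tubulin gene, was at 9.01 ± 2.02 CPM in siMt2 and 3.07 ± 1.63 CPM in siNT (1.54, SE 0.32, edgeR adjusted p = 4.41e-04). The summed level of these 7 markers was 15.1 to 19.2 CPM in siMt2 and 6.21 to 7.20 CPM in siNT; S100b, Snap25 and Mbp never exceeded 3 counts in a library, and the part of these markers in the level of Agrn or of any other junction gene was not tested.

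The genes whose levels across the 6 libraries were most like those of Musk, among 9569 with at least 5 CPM, were R3hdm1, Chtf8, Vimp, Bnip3 and Zfp612, with Pearson correlations of log2(CPM + 0.5) of 0.9993 to 0.9995. Because the 6 libraries fall into the siMt2 and siNT groups, this likeness mostly restates the difference between groups, and 1789 of the 9569 genes exceeded 0.9. No such comparison was made for Chrna1, which had at most 4 counts in a library.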

How the data were processed

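Gene counts of 6 RNA-seq libraries were analysed; groups and replicate numbers come from the sample titles. The authors deposited raw whole-number counts per gene, without normalization. Per the submitters' processing notes, Trimmomatic 0.40, HISAT2 2.2.1, featureCounts, limma, DESeq2 and build rn6 were used; their order and settings, strand and the treatment of shared reads included, are not given in the sources used here. Of 18237 rows, 25 carry names that a spreadsheet turned into dates (0.260% of counts); they stayed in the tests and are not named. There were 0 columns without a sample.

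In R 4.3.3, edgeR 4.0.16 kept 11726 genes by filterByExpr (minimum count 10), scaled libraries by TMM on the kept genes and compared siMt2 with siNT by the quasi-likelihood test with robust estimates, two-sided; p-values were adjusted by Benjamini-Hochberg over the kept genes and read at 0.05. SE is the log2 fold change divided by the root of the F statistic. Single values were compared by exact permutation over 20 assignments. Likeness used log2(CPM + 0.5). The procedure was tested on simulated data. Within groups, paired libraries varied 1.57 to 2.23 times as much as counting predicts, so none was taken as a repeat.

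The 10 genes and all lists were chosen with earlier results of these data known. Named are all 10, the 4 genes of each other list with the smallest adjusted p, and the 5 genes most like Musk; every other gene named (markers near 0, overlapping genes and single list members among them) was chosen with its values known. Alternatives were in edgeR, scaling by DESeq2 size factors or the upper quartile, omission of the filter, a stricter one (every library of either group at 10 counts or more, mean CPM at least 1), a replicate block, and omission of single libraries, then DESeq2 1.42.0, limma-voom (limma 3.58.1) and, chosen after seeing the data, libraries thinned to the smallest total. Promoters are RefSeq sequences of GRCr8.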

Additional observations from a re-analysis of the deposited data

How the results depend on the processing

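The calls of Musk and Lrp4 held in all 14 alternatives. Of the 10 junction genes, 4 passed in the analysis reported; 2 passed under the stricter filter, DESeq2, limma-voom and thinning to equal depth, 3 under upper quartile scaling, 6 with no filter (adding Chrnd and Chrng), and 2 to 3 with a library left out. Dok7 could not be fitted under the stricter filter, thinning or without siMt2 replicate 1. There 5 junction genes were tested, and with no filter all 10. Over all genes tested, 50.9% passed in the analysis reported and 51.0% under upper quartile scaling. The share was 52.6% under the stricter filter, 42.3% in DESeq2, 52.4% in limma-voom and 41.6% after thinning. It was 34.4% with no filter and 43.5% to 51.5% with a library left out. Agrn, which passed nowhere, turned to 0.0059 under upper quartile scaling and ranged from -0.087 to 0.030 with a library left out. Chrnb2, also never called, turned to 0.0091 under upper quartile scaling and 0.0026 in limma-voom and ranged from -0.173 to 0.129 with a library left out. Same-numbered libraries did not deviate together (correlations -0.0010, -0.058 and 0.025), so the replicate block is only a check: with it 4 junction genes and 5897 of all genes passed, and sign flips over same-numbered pairs gave p = 0.5 for the fetal share and 0.25 for the summed subunits. Over all genes 5109 to 6254 passed with a library left out. Depth limits Chrna1, Chrnd, Chrng, Chrne and Dok7, whose libraries held 0 to 35 counts. Among the 31 other genes named for the smallest adjusted p in their lists, 414 of 431 refitted values kept direction and call. Choosing them by adjusted p in these same data favours kept calls. Genes named for other reasons, such as Prima1, Colq and Gabpa, are not among the 31. The causes of the changes were not tested.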
